A study of Mytilus galloprovincialis with 8 samples.

Results

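The transcripts described here are those whose signal was higher in exposed than in control mussels in all 4 comparisons of pools, 2 in digestive gland and 2 in gill. They comprised 114 of the 51300 probes of an oligonucleotide microarray built for the mussel Mytilus galloprovincialis. To be counted, a probe needed a log2 ratio of exposed over control above 0.7 in each of the 4 replicates, computed from the median intensity of a spot less its local background, with 50 added to each channel and each array centred on its median. The measured ratios themselves therefore chose the probes, and the size and sign of the exposure effect are given below as a description.

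The exposed group comprised adult mussels kept in aerated seawater, given Tetraselmis suecica and Isochrysis galbana as food and then fed Prorocentrum lima for 24 h. The sample records give the dose as 200 cells/ml. The paper names another unit, cells per litre. The control group was adult mussels with the same microalgal diet and no P. lima. Each RNA was a pool of 5 mussels, each tissue had 2 exposed and 2 control pools, and each exposed pool shared 2 arrays with its control pool, the second with the dyes exchanged. This gave 8 arrays and n = 2 per tissue. A pool holds many cell types, so fewer cells of one type and less RNA per cell cannot be told apart.

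Okadaic acid (OA), the toxin of P. lima, inhibits the serine/threonine phosphatases PP1 and PP2A. These enzymes remove phosphate groups that kinases have added, and their loss alters signalling, the cytoskeleton and cell survival. The digestive gland of a mussel takes up and digests filtered algae and is the main site where the toxin accumulates, while the gill filters the water and meets the algae first. A transcript that rises in both tissues is therefore one measured as higher in an organ of digestion and in an organ of filtration.

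In digestive gland, 51.7% to 57.4% of the spots were marked by the scanner software as well above background in both channels, against 37.0% to 39.6% in gill, and no spot was saturated. All 114 probes were well above background in the exposed channel on every one of the 8 arrays. On 1 digestive gland array the label names the dye Cy6, which was read as Cy5. The 8 arrays came from 1 slide and 1 scan with the tissues in different rows, so that effects of array position cannot be separated from tissue. The files pair no probe with a gene name or a sequence, and the probes are therefore called by their contigs, the assembled sequences they were designed from. The contig names carry the code of the cDNA library: mgt200.forw is read here as the forward library of suppression subtractive hybridization (SSH), which enriches transcripts more abundant in exposed digestive gland, cDNA_MGT.90 as the normalized library of exposed mussels and cDNA_MGC as that of control mussels. All libraries were made from digestive gland.

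With loess normalization within arrays in place of the median centring, and nothing else changed, all 114 probes kept a log2 ratio above 0 in all 4 replicates, and 74 kept a ratio above 0.7 in all 4. Above 0.7 stood 114 probes in digestive gland replicate 1, 110 in replicate 2, 106 in gill replicate 1 and 78 in gill replicate 2. The count was lowest in gill replicate 2, where brightness also counted most. Among 17640 probes measured above background on every gill array, the median ratio by the rule was 0.392 in gill replicate 2 and 0.0394 in replicate 1, and 25.1% and 4.04% exceeded the threshold. With loess alone these shares were 5.45% and 3.03%, and with normexp background correction alone 24.2% and 3.71%. With both, and with outlier spots left out, 63 of the 114 probes stood above 0.7 in all 4 replicates and all 114 above 0. The ratios from here on are those after normexp and loess, given as logFC, the log2 ratio of exposed over control.

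The median logFC of the 114 probes was 1.27 and 1.51 in the digestive gland pools and 1.04 and 0.82 in the gill pools. Averaged over the pools it was 1.39 in digestive gland, with single probes from 0.66 to 8.57, and 1.02 in gill, with single probes from 0.41 to 5.27, beside medians near 0 over all probes. In digestive gland 30 probes had a logFC above 2, and 20 did in gill. The digestive gland value was the higher for 87 probes, and the gill value for 27. On single arrays, 111 of the 114 probes had a positive ratio on all 8, and the lowest value on any array was -0.44. These values are after loess. In the ratios of the rule, each array of a dye swap lay off the mean of the 2 by a median of 0.82 and 0.57 in the digestive gland replicates. In the gill replicates it was 0.29 and 0.45.

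**Figure D1:**
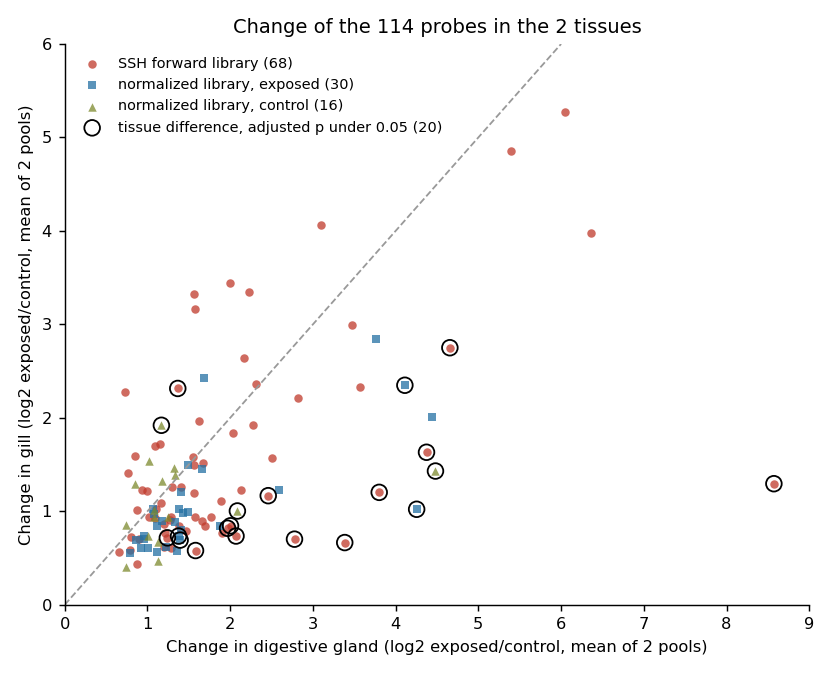
Change of each of the 114 probes in digestive gland (horizontal axis) and in gill (vertical axis), both as log2 exposed over control and mean of 2 pools, with symbols for the library of the contig, circles around the 20 probes whose change differed between tissues in the limma fit and a dashed line of equal change. Most points lie below the line (87 of 114), and 1 probe stands far to the right at 8.57 in digestive gland and 1.30 in gill.

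By the limma fit, 95 of the 114 probes passed an adjusted p of 0.05 in digestive gland, where 9.1% of all probes were called as higher, and 2 passed in gill, where 0.00975% were called. At an unadjusted 0.05, 111 passed in gill, beside 7.13% of all probes. The probes were chosen on these same ratios, and the counts describe the selection. The fit took 1 spread for both tissues, so a wide gap between the gill pools could keep a probe out of the digestive gland count. For example, mgt200.forw_c2125, with 1.57 and 1.56 in the digestive gland pools, had an adjusted p of 0.456 there in limma. Leaving out a digestive gland pool lowered the count of 95 to 55 (without replicate 1) or 35 (without replicate 2), and the count in gill ranged from 0 to 13 when single pools were left out. The gill count also moved with the background correction, to 44 without background subtraction, 87 with a normexp offset of 0 and 91 with the scanner software's processed signals. The share of all probes called under these settings is not given here.

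The probe with the highest mean ratio was mgt200.forw_rep_c3764, spotted 2 times. Its log2 level was 6.01 and 6.35 in the control pools of digestive gland and 11.96 and 12.50 in the exposed pools. In gill it was 6.37 and 6.27 in the control pools, and 13.99 and 9.19 in the exposed pools. The exposed pools stood above the control pools in both tissues, and exposed gill pool 1 stood far above exposed gill pool 2. The logFC was 6.05 ± 1.17 (SE, n = 2) in digestive gland, at least 63.8-fold, and 5.27 ± 1.17 in gill, 38.5-fold. Each SE given here comes from 1 spread shared by both tissues. The gap between the gill pools thus widens the digestive gland SE as well, although the digestive gland pools gave 5.94 and 6.15. The digestive gland fold is a lower bound because the control signal was not well above background on any array of that tissue. The lowest signal distinguishable from background stands in for it. In gill the control was above background on 2 of 4 arrays, and without gill replicate 1 the logFC there was 2.92.

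A small group of the probes had a wide gap between the gill pools. In 8 of the 114 probes the gill logFC of replicate 1 exceeded that of replicate 2 by more than 4, and these were all 8 such probes on the array. Above a difference of 3 there were 21 probes on the array, 12 of them among the 114. In the opposite direction, with replicate 2 the higher, 11 probes on the array were more than 4 apart and 22 more than 3, with 0 of the 114 among them. In the 8 probes the exposed gill pools differed by 4.16 to 4.80 on the log2 scale, whereas the control gill pools differed by -0.18 to 0.22. The gap thus lay in the exposed channel. It was found in probes with very unlike changes in digestive gland, though the cut at 4 set its lowest size.

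Among these 8, mgt200.forw_rep_c6024 had a logFC of 6.24 and 6.49 in the digestive gland pools, and of 6.33 and 1.63 in the gill pools. Its digestive gland change was at least 81.6-fold. mgt200.forw_c2907 gave 5.27 and 5.51 in digestive gland and 7.07 and 2.64 in gill, a profile close to that of mgt200.forw_rep_c3764. In these 3 the digestive gland response was large, with both pools close together, and only the gill pools were far apart.

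In the remaining 5 the digestive gland change was smaller. mgt200.forw_rep_c5517 gave 3.37 and 3.58 in digestive gland and 5.07 and 0.93 in gill, and mgt200.forw_c7732 gave 2.88 and 3.31, and 6.28 and 1.85. mgt200.forw_c13569 gave 1.91 and 2.08 in digestive gland and 5.60 and 1.28 in gill. For mgt200.forw_c2125 the digestive gland pools gave 1.57 and 1.56 and the gill pools 5.57 and 1.08, almost the same as mgt200.forw_c15484, with 1.58 and 1.57, and 5.31 and 1.02. All 8 contigs came from the SSH forward library, and their controls were above background on none of the digestive gland arrays and on 0 to 2 of the gill arrays. Without gill replicate 1 their gill logFC lay between 0.93 and 2.92.

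mgt200.forw_rep_c3660, the other probe among the 6 with the highest gill ratio, showed the same order, with 2.28 and 2.17 in the digestive gland pools and 5.33 and 1.36 in the gill pools. Gill replicate 1 exceeded replicate 2 by more than 1 in 28 of the 114 probes, and replicate 2 exceeded replicate 1 by more than 1 in 3, beside 248 and 168 of all probes. In the 28, 20 of them from the SSH forward library, the median logFC was 3.15 in gill replicate 1 and 0.97 in gill replicate 2, and 2.14 and 2.39 in digestive gland. In the 83 probes whose gill pools lay within 1 of each other these medians were 0.93, 0.77, 1.19 and 1.40. Across the 114 probes, which share arrays and pools, the replicates of digestive gland correlated at r = 0.986 and those of gill at r = 0.398.

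**Figure D2:**
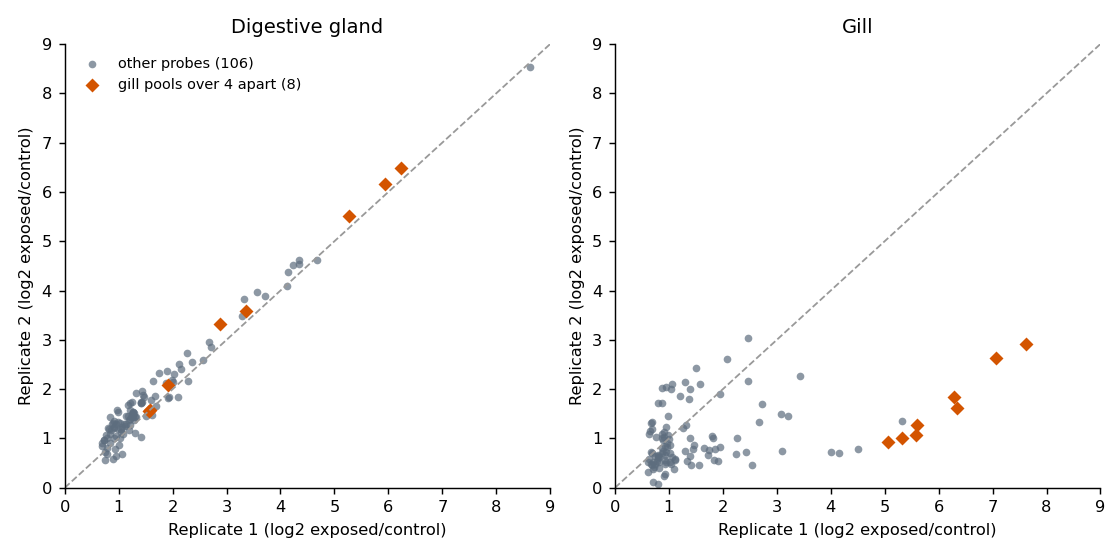
LogFC (log2 exposed over control) of the 114 probes in replicate 1 against replicate 2, in digestive gland (left) and gill (right), with the 8 probes whose gill pools were over 4 apart as diamonds and a dashed line of equal change. The digestive gland points follow the line, while the 8 diamonds lie at 5.07 to 7.61 in gill replicate 1 and 0.93 to 2.92 in gill replicate 2.

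The largest change of all was that of mgt200.forw_rep_c7142 in digestive gland. Its level was 6.72 and 6.99 in the control pools and 15.34 and 15.52 in the exposed pools of that tissue, and 5.84 and 6.15, and 7.16 and 7.43, in gill. The 2 pools of a group lay close together in each tissue. The logFC was 8.57 ± 0.05 (SE, n = 2) in digestive gland, 381-fold, and 1.30 ± 0.05 in gill, at least 2.43-fold, since no gill control was above background. Since the gill value is a lower bound, the size of the difference between the tissues is not settled. It was 7.28 here, 6.07 with a normexp offset of 0 and 4.94 with the processed signals.

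mgt200.forw_rep_c4789 was the other probe called in gill, with control signal above background on every array. Its level went from 11.91 and 12.17 to 13.22 and 13.60 in digestive gland, and from 7.73 and 7.94 to 10.20 and 10.10 in gill. The logFC was 1.37 ± 0.09 (SE, n = 2) and 2.31 ± 0.09, so that gill showed the larger rise.

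Several further probes rose strongly in digestive gland with gill pools closer to each other. mgt200.forw_rep_c8648 went from 5.93 and 6.20 to 10.61 and 10.83 in digestive gland, and from 5.90 and 6.22 to 8.37 and 9.25 in gill. Its logFC was 4.66 ± 0.15, at least 23.2-fold, and 2.75 ± 0.15, at least 6.70-fold. cDNA_MGT.90_rep_c11629 behaved alike, with 4.13 and 4.09 in digestive gland and 2.08 and 2.61 in gill, and neither had a control above background on any array. The exposed pools of both probes stood above all their controls.

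cDNA_MGT.90_c17407 is the probe with the largest gill change among those measured above background in every channel of all 8 arrays. Its level went from 7.80 and 8.0 to 11.37 and 11.96 in digestive gland, 13.6-fold, and from 6.83 and 7.03 to 10.27 and 9.28 in gill, 7.20-fold. mgt200.forw_c1225, also above background throughout, rose 11.9-fold in digestive gland (logFC 3.32 and 3.82) and 5.01-fold in gill (3.20 and 1.45). For both probes every exposed pool stood above the control pools of its tissue. For cDNA_MGT.90_c3282 the logFC was 4.34 and 4.55 in digestive gland, and 2.67 and 1.34 in gill. mgt200.forw_rep_c3853 had 4.23 and 4.52, and 2.26 and 1.00.

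**Figure D3:**
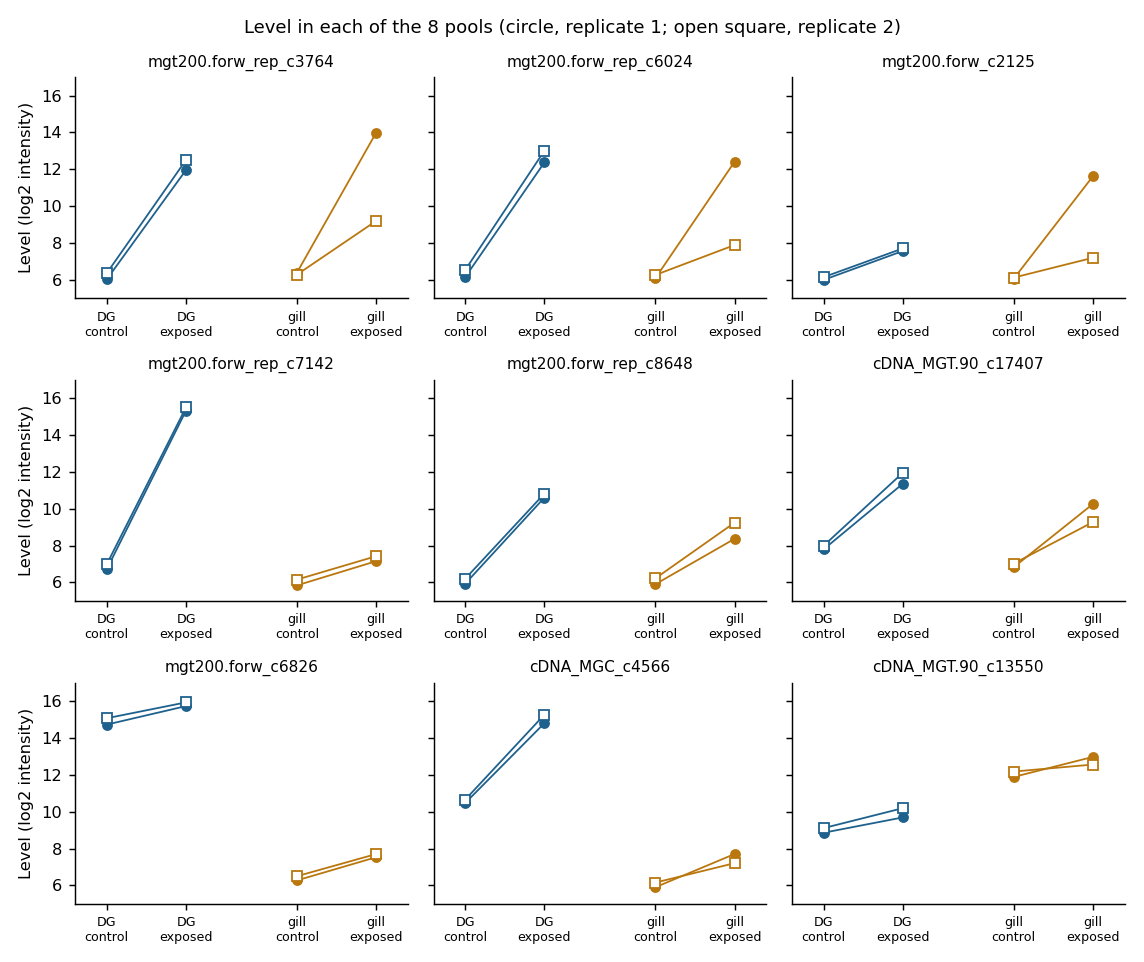
Log2 intensity of 9 probes in the 8 pools, each line joining a control pool to the exposed pool hybridized with it (circle, replicate 1; open square, replicate 2) for digestive gland (DG, blue) and gill (ochre). Top row, probes whose exposed gill pools were over 4 apart. Middle row, probes with large changes and closer gill pools. Bottom row, 2 probes bright in control digestive gland and 1 bright in control gill. Levels are to be read within a tissue, as the gill arrays were dimmer.

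A difference of the change between tissues passed the limma contrast for 20 of the 114 probes. In 18 the change was larger in digestive gland (5.01% of all probes were called this way) and in 2 it was larger in gill (4.67%). The largest differences towards digestive gland were measured for mgt200.forw_rep_c7142, cDNA_MGT.90_rep_c10378 (4.25 ± 0.15 and 1.02 ± 0.15), cDNA_MGC_c4566 (4.48 ± 0.20 and 1.43 ± 0.20) and mgt200.forw_c19169 (3.38 ± 0.09 and 0.67 ± 0.09). The gill control was above background on no array for the first 3, whose gill change is a lower bound, and on 1 of 4 arrays for the fourth. With the processed signals the difference turned to -0.30 for cDNA_MGT.90_rep_c10378 and -0.92 for cDNA_MGC_c4566, and it was 2.76 for mgt200.forw_c19169. At the gill end stood mgt200.forw_c2125, mgt200.forw_c15484 and mgt200.forw_c13569, described above, and mgt200.forw_c928, with 0.79 and 0.68 in digestive gland and 3.07 and 1.49 in gill. None of these 4 passed the contrast, and their gill pools lay 1.58 to 4.49 apart. Without digestive gland replicate 1 the contrast called 4 probes and without replicate 2 it called 3.

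In control mussels the signal was near background for part of the probes and high for others. The control channel was above background on all 4 arrays for 92 probes in digestive gland, for 77 in gill and for 76 in both. It was above background on no array for 21 probes in each tissue, 14 of which were shared. Of the 114 probes, 12.3% thus had a control signal well above background on no array of either tissue, beside 34.6% of all probes. This mark does not show that a transcript was absent. These 14 probes, 13 of them from the SSH forward library, had a median logFC of 2.11 in digestive gland and 2.35 in gill. The 76 probes with a control signal above background on all arrays of both tissues had medians of 1.24 and 0.94. A change from a dim control is a lower bound, and the dim probes could pass the rule only through a bright exposed channel.

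The level of the probes in control digestive gland and control gill was not used by the rule, although the control signal is the denominator of its ratios. Gill arrays were dimmer, and the scaling between arrays set the direction for many probes. The median difference of the 114, digestive gland minus gill, was -0.96 after Aquantile scaling, -0.36 after quantile scaling and 0.89 without scaling, beside -0.07, -0.07 and 0.30 over all probes. Aquantile alone called 27 probes as higher in digestive gland and 77 as higher in gill (19.7% and 32.3% of all probes), quantile scaling 34 and 65 (20.5% and 31.7%), and no scaling 77 and 6 (53.1% and 1.78%). Calls are therefore given only where the limma test passed in the same direction under all 3. In this way 27 probes were higher in control digestive gland (23.7%, beside 19.1% of all probes) and 6 were higher in control gill (5.26%, beside 1.78%). The remaining 81 had no call under all 3.

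**Figure D4:**
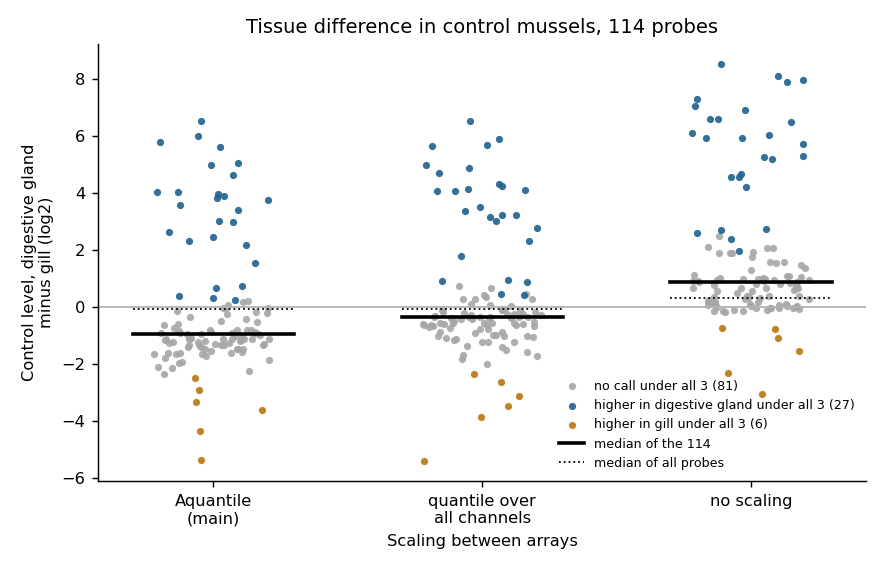
Difference of the log2 control level, digestive gland minus gill, of the 114 probes (points) under 3 scalings between arrays, with solid lines for their median and dotted lines for the median of all probes. The 27 probes in blue and the 6 in ochre keep their side and pass the test under each scaling, while the median of the 114 moves from -0.96 to 0.89.

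The tissue difference was largest for mgt200.forw_c6826. Its control level was 14.74 and 15.08 in digestive gland and 6.27 and 6.50 in gill, and its exposed level was 15.74 and 15.94, and 7.53 and 7.70. The control difference was 6.53 after Aquantile scaling (adjusted p = 8.1e-07 in limma), 6.51 after quantile scaling and 8.53 without scaling. Exposure raised it by 0.93 ± 0.05 in digestive gland and by 1.23 ± 0.05 in gill. In control mussels the transcript was thus far more abundant in digestive gland than in gill, and the exposed pools stood above the control pools in each tissue.

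Another 4 of the 6 probes with the largest difference had a similar profile. mgt200.forw_rep_c3533 and mgt200.forw_rep_c3491 were 5.98 and 5.80 higher in control digestive gland after Aquantile scaling, and rose by 1.09 ± 0.16 and 1.15 ± 0.22 there and by 1.70 ± 0.16 and 1.72 ± 0.22 in gill. cDNA_MGC_rep_c8816 was 5.60 higher and mgt200.forw_rep_c20193 was 4.98 higher, with a logFC of 1.02 and 1.00 in digestive gland and 1.54 and 1.22 in gill. In these 4 the gill rise was larger in replicate 2 than in replicate 1, unlike in the probes with wide gaps above. cDNA_MGC_rep_c17013 was 5.05 higher in control digestive gland and differed from them in its change, with 1.99 and 2.19 in digestive gland and 1.01 and 1.00 in gill.

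cDNA_MGT.90_rep_c10378 and cDNA_MGC_c4566 combined a high control level in digestive gland with a large rise there. Their control levels were 10.37 and 10.62, and 10.47 and 10.66, in digestive gland, and no gill control was above background for either. Their rise in digestive gland was 19.1-fold and 22.3-fold. In gill the exposed pools were at least 2.02-fold and 2.69-fold above the controls.

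Transcripts rich in digestive gland rose in gill well beyond the 114 probes. Of all probes, 1490 were more than 5 higher on the log2 scale in control digestive gland than in control gill without scaling, 18 of them among the 114. In the other 1472 the median logFC was 0.28 and 0.37 in the gill replicates and 0.07 and 0.06 in the digestive gland replicates. In the 377 probes more than 7 higher the gill medians were 0.56 and 0.79 and the digestive gland medians were 0.06 and 0.06. In the 18 probes among the 114 the medians were 1.00 and 1.20 in gill, and 1.20 and 1.44 in digestive gland. The control gill level that forms these groups is also the denominator of the gill ratio. Groups formed on the mean of both channels gave gill medians of 0.29 and 0.37 over 1438 probes. Their digestive gland medians were 0.11 and 0.12. Above 0.7 in both gill replicates were 10.2% of the 1472 and 0.486% of all probes. By these medians, transcripts rich in digestive gland gave more signal in exposed than in control gill pools. The digestive gland medians were near 0 outside the 114, but loess sets the median of bright probes near 0. They thus cannot show whether these transcripts changed in digestive gland. With the rule's ratios, the 1472 probes had medians of -0.09 and 0.49 in digestive gland and 0.34 and 0.73 in gill. The probes were also not split by their own change in digestive gland. Whether digestive gland RNA in the gill pools had a part in the gill rise of these transcripts, and of the 27 probes higher in control digestive gland, was not tested. The 8 probes with wide gaps in gill had no control signal above background in digestive gland, while their exposed level there was 7.55 to 13.01.

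**Figure D5:**
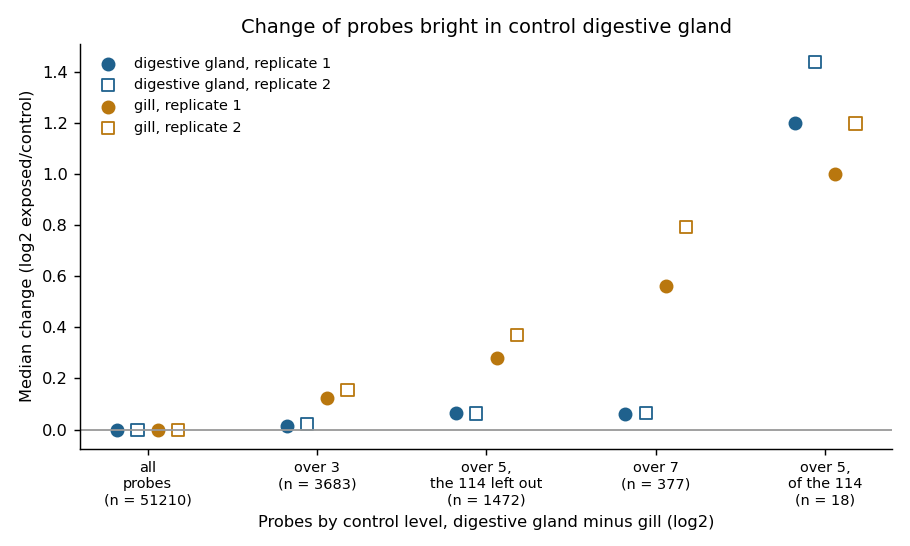
Median logFC (log2 exposed over control) in the 4 replicates for groups of probes set by how much higher their control level was in digestive gland than in gill (log2, without scaling), with the 18 probes of the 114 that were over 5 higher at the right. Gill medians move from near 0 for all probes to 0.56 and 0.79 for probes over 7 higher. Digestive gland medians stay at 0.07 or below in every group but the one at the right. All medians are after loess, which sets the median of bright probes near 0.

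The 6 probes higher in control gill were few but clear. cDNA_MGT.90_c13550 had control levels of 8.86 and 9.11 in digestive gland and 11.89 and 12.18 in gill, and exposed levels of 9.69 and 10.19, and 12.98 and 12.57. The control difference, digestive gland minus gill, was -5.38 after Aquantile scaling (adjusted p = 8.8e-07 in limma) and -3.05 without scaling. It rose by 0.96 ± 0.19 in digestive gland and 0.74 ± 0.19 in gill. mgt200.forw_c15069 had a control difference of -4.35 (-2.30 without scaling) and the largest rise of the 6, with 2.27 and 2.74 in digestive gland and 2.42 and 0.72 in gill.

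The others of this group changed less. mgt200.forw_c8384 differed by -3.63 and had a logFC of 1.57 in digestive gland, and of 1.83 and 0.56 (mean 1.19) in the gill pools. cDNA_MGC_c14829 differed by -3.32, and its logFC was 1.13 and 0.47. cDNA_MGC_c13926 differed by -2.91 (-0.73 without scaling), and its rise in gill, 1.95 and 1.89, exceeded that in digestive gland, 1.02 and 1.32. It was thus a transcript with the higher control level and the larger, closely agreeing rise in gill. cDNA_MGT.90_c20244 differed by -2.50 and rose by 0.79 ± 0.09 and 0.55 ± 0.09.

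The contigs of the 114 probes came from the SSH forward library in 68 cases (59.6%, beside 29.4% of all probes), from the normalized library of exposed mussels in 30 (26.3%, beside 37.4%) and from the normalized control library in 16 (14.0%, beside 33.2%). The 48 probes falling by the same rule in both tissues held 0 from the SSH forward library and 42 from the control library. Among 1337 probes that passed the threshold in both digestive gland replicates and in neither gill replicate, the SSH forward library gave 64.7%. SSH forward probes of the 114 had a median logFC of 1.58 in digestive gland and 1.21 in gill, probes of the exposed library 1.38 and 0.89, and probes of the control library 1.13 and 1.01. The SSH library was itself enriched for transcripts of exposed digestive gland, so its share is not independent of the rise there.

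The 114 probes also differed from the 1337 in how they stood in control mussels. The control signal in gill was above background on all 4 arrays for 67.5% of the 114, 17.4% of the 1337 and 36.4% of all probes, and on no array for 18.4%, 71.8% and 52.3%. Exposed gill was above background on all 4 arrays for all 114 and for 304 of the 1337. The rule asks for a gill ratio that only a bright gill channel can give, so that these shares follow in part from it. Replicate 2 of digestive gland had the higher logFC in 78.9% of the 114 and in 76.3% of the 1337, beside 51.6% of all probes.

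Each probe had a contig of its own, but contigs were assembled library by library and one transcript may be represented by several. The number of separate transcripts among the 114 is thus not known. In 26 probes spotted 2 times, the spots differed by a median of 0.104 on an array.

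At the edge of the rule stood cDNA_MGC_c9957, with rule ratios of 0.87 and 0.96 in digestive gland and 0.81 and 0.70 in gill, mgt200.forw_rep_c9721 (0.73, 0.95, 0.71 and 1.07), mgt200.forw_c16053 (1.00, 1.09, 0.91 and 0.72) and cDNA_MGC_c14829 (0.97, 1.71, 0.72 and 0.94). Just outside were mgt200.forw_c3125, with a lowest ratio of 0.70 in digestive gland replicate 1, mgt200.forw_c7029 (0.70 in gill replicate 2), cDNA_MGT.90_c19131 (0.70 in gill replicate 2) and mgt200.forw_rep_c5046 (0.69 in gill replicate 2). The probes on both sides of the threshold were nearly alike. After normexp and loess the ratio of cDNA_MGC_c9957 in gill replicate 2 was 0.11 and that of mgt200.forw_c16053 was 0.08.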

How the data were processed

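The authors deposited the scanner output of each array, with the median intensity and local background of every spot in both channels and quality marks, made with Agilent Feature Extraction 10.7.3.1 per the submitters' processing notes. A second deposited table gives, spot by spot, the authors' log2 of the red over the green channel, whose processing is not named in it. Its column medians were near 0 and its r with the scanner's log2 ratios was 0.772 to 0.903, and it served as an alternative. The mean signal was to be used, but the deposited intensities used here are medians.

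The rule was applied to 61657 spots that are not controls. For all other values, normexp (offset 50) and loess were run in limma 3.58.1 (R 4.3.3), spots marked as outliers were left out, spots of a probe and the 2 arrays of a dye swap were averaged, and 1 fit with a mean per tissue was made on the 4 averages (2 residual degrees of freedom), with Benjamini-Hochberg adjustment over all probes. The p-values and SE rest on a spread between pools that the 2 tissues share and that limma draws towards that of all probes. They do not measure the spread between the pools of 1 tissue alone. Levels are log2 intensities of each channel without scaling between arrays. Control levels were compared after Aquantile scaling, and after quantile or no scaling. The arrays' number and signal over background limit the precision. Both the rule and the fit were tested on simulated data.

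The members and the lists were chosen with earlier results of these data known. The rule for named probes took the 12 with the highest mean ratio, the 6 highest in gill, the 4 nearest the threshold on each side, the 4 at each end of the digestive gland minus gill change, and the 6 with the largest control difference between tissues in each direction. Contigs with several probes and gene lists, also part of the rule, named nothing, since each probe had its own contig and no gene names were used here. The marker lists of cell types could not be applied for the same reason. The probes called in gill and the groups set by control level, by gap between gill pools and by brightness, and the alternatives that changed loess or normexp alone or recomputed the tissue difference of named probes, were chosen after their values were seen. Numbered pools were not treated as paired: the deviations of same-numbered pools correlated at 0.162 in the ratios and 0.206 in the control levels over 2 pairs.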

Additional observations from a re-analysis of the deposited data

Results flagged for a closer look

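The exposure effect was unequal in the 2 tissues for 20 of the 114 probes, by a limma contrast of the tissues with adjusted p under 0.05 over all probes. It was larger in digestive gland in 18 (15.8%, beside 5.01% of all probes) and in gill in 2 (1.75%, beside 4.67%). Of the probes named in the text, 10 were among the 20, with adjusted p from 0.000487 to 0.0446 in limma. The ratios that enter this contrast also chose the probes.

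The difference in log2 change, digestive gland minus gill, was 7.28 for mgt200.forw_rep_c7142, 3.23 for cDNA_MGT.90_rep_c10378 and 3.05 for cDNA_MGC_c4566. In these 3 the gill control was above background on no array, so that the gill change is a lower bound and the difference is not a measured size. With the scanner software's processed signals it was 4.94, -0.30 and -0.92, and with a normexp offset of 0 it was 6.07, 1.34 and 1.10. The direction thus turned for cDNA_MGT.90_rep_c10378 and cDNA_MGC_c4566.

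For mgt200.forw_rep_c3853, mgt200.forw_rep_c8648 and cDNA_MGT.90_rep_c11629 the difference was 2.74, 1.91 and 1.76, and the control was above background on no array of either tissue, so that it is a difference between lower bounds. It was 2.72 for mgt200.forw_c19169, with the control above background on 2 of 4 arrays in digestive gland and 1 of 4 in gill. The controls of the remaining 3 were above background on every array. The difference was 1.08 for cDNA_MGC_rep_c17013 (0.39 with the processed signals, adjusted p = 0.427 in limma). It was -0.95 for mgt200.forw_rep_c4789 (-1.26, adjusted p = 0.0463) and -0.75 for cDNA_MGC_c13926 (-0.71, adjusted p = 0.193). In this order, the adjusted p in limma was 0.319, 0.0512 and 0.226 with a normexp offset of 0. It was 0.246, 0.112 and 0.194 with median centring, and 0.0139, 0.0197 and 0.0337 without background subtraction. With median centring mgt200.forw_rep_c8648 and cDNA_MGT.90_rep_c11629 had an adjusted p of 0.0755 and 0.0799 in limma.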

How the results depend on the processing

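The number of probes that meet the rule was 331 with an offset of 10, 68 with an offset of 100, 258 and 53 with a threshold of 0.5 and 1, 73 after normexp and loess (63 of them among the 114), 85 with loess alone and 106 with normexp alone, 193 in the authors' table (97 shared) and 115 to 321 when single replicates were left out. The count of the 114 called in digestive gland was 35 to 114 without single replicates, and 86 or more under the other alternatives.

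The gill count of 2 was the least stable. It was 87 with a normexp offset of 0, 44 without background subtraction, 91 with the scanner software's processed signals, 109 in the authors' table, 46 among bright probes, 110 with arrays entered separately, 69 with the rule's own ratios and 30 without the array named Cy6. It was 0 in limma with median centring (114 at an unadjusted 0.05) and with each tissue fitted alone (93), and 0 to 13 without single replicates (93 to 112 unadjusted). The cause was not tested. Apart from the gill count of bright probes, shares of all probes are not given for these alternatives. The counts thus do not show a result particular to the 114. The median gill change of 1.02 was 1.71, 1.20, 1.95, 1.33, 1.52 and 1.36 with offset 0, no background subtraction, processed signals, median centring, the authors' table and the rule's ratios, and 0.82 to 1.04 without single replicates. The digestive gland median of 1.39 was 1.68, 1.74, 1.60 and 1.61 with offset 0, processed signals, the authors' table and the rule's ratios. Probes with a tissue difference in the change numbered 8 with offset 0, 13 with processed signals, 8 with median centring, 38 with arrays entered separately and 3 to 21 without single replicates.

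In control mussels the median tissue difference of -0.96 reversed to 0.89 without scaling, with 77 probes higher in digestive gland and 6 in gill against 27 and 77 after Aquantile. It was -0.36 after quantile scaling, -1.11, -1.06 and -1.12 with the 3 other background settings, -0.96 with outlier spots kept, -0.88 without the array named Cy6, and -0.98 to -0.94 without single replicates. The mean of both channels gave -0.68 and 51 probes higher in gill. With the replicate number as a block, 29 and 79 probes were called between control tissues, and 18 in place of 20 for the change. The change with exposure within a tissue, recomputed for the probes named by the rule and those called in gill, reversed its direction in no alternative run. All of these probes were chosen as rising in each of the 4 replicates, so that this outcome was largely set in advance. Outside the 114, the gill medians of the 1472 probes rich in digestive gland were 0.47 and 0.63 in the authors' table. Their digestive gland medians were 0.07 and 0.09 there.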
